A study of Homo sapiens with 12 samples.

Results

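Zinc protoporphyrin and tin protoporphyrin were set against each other in the human neuroblastoma line SH-SY5Y, which is of noradrenergic type. Both compounds carry the same porphyrin ring, with zinc in one and tin in the other. The 6 libraries compared, 3 per compound, were chosen by their treatment labels from the 12 of the series, and every gene that passed a filter on low counts was described (16366 of 60710). Each compound was at 5 µM for 5 h, added in 10 µL of DMSO to 2 mL of medium. The other 6 libraries were 3 of cells given DMSO alone and 3 of cells given HPPE, a compound whose name the labels do not spell out, at the same dose and time. All 12 entered the model to estimate the spread. The labels do not say whether replicates were separate cultures, so the p-values measure the spread between these libraries, which may be technical. The 2 compounds form 1 pair at matched dose and time.

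Heme, the iron form of the same ring, is made in a chain of enzymes that opens with delta-aminolevulinate synthase, and the ubiquitous form of that enzyme, ALAS1, is known to be held down by heme. Heme is broken down by heme oxygenase, whose inducible form HMOX1 is a target of the transcription factor NRF2 and is kept silent by BACH1, a repressor that heme removes from DNA. Zinc and tin protoporphyrin are both known as competitive inhibitors of the heme oxygenase enzyme, while free zinc is sensed by MTF1, which turns on metallothioneins and the zinc exporter SLC30A1.

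The zinc libraries held 1337028, 7855473 and 8540540 counts and the tin libraries between 6986518 and 9145399, so that 3 counts equalled 2.26 CPM (counts scaled to a library of 1e6) in zinc replicate 1 and at most 0.417 CPM in the other 5. Libraries of one compound were not always closest to each other. Over 8418 genes the median absolute log2 difference was 0.0807 between zinc replicate 2 and tin replicate 2, the smallest of the 15 pairs, against 0.211 between tin replicates 1 and 2. The libraries also differed in how levels followed transcript length: with 10952 genes cut into 10 bins by length, the median deviation from the 12-library mean in the shortest bin was -0.30 log2 units in zinc replicate 3, -0.18 in tin replicate 2 and 0.24 in tin replicate 1. All 3 zinc libraries and tin replicate 2 were low for short transcripts and high for long ones. The log2 differences between the compounds moved with length, with a Spearman correlation of 0.524 across genes that are not independent replicates. Noradrenergic markers such as GATA3 and DBH summed to 5969 to 6577 CPM with zinc and 6395 to 6580 with tin, and 14 mesenchymal markers to 1553 to 1784 and 1807 to 1814 CPM. Of 19 noradrenergic markers, TH and INSM1 were near 0 (at most 2 counts in a library), and 14 markers of blood, epithelial, endothelial, liver and glial cells summed to 3.77 to 8.06 CPM in all.

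**Figure D1:**
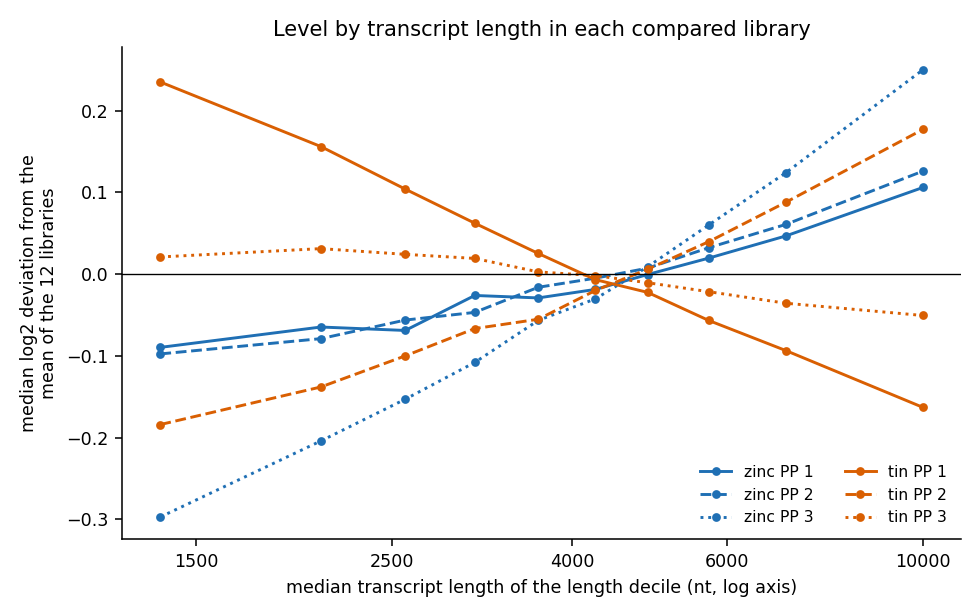
Median log2 deviation of each compared library from the mean of the 12 libraries (vertical axis) in 10 bins of genes by transcript length in nucleotides (horizontal, log axis), with zinc libraries in blue and tin libraries in orange. In the shortest bin tin replicate 1 lies at 0.24 and zinc replicate 3 at -0.30, and in the longest bin they lie at -0.16 and 0.25.

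Of 16366 genes, 1 was called higher with zinc than with tin protoporphyrin (0.00611%) and none lower (0%) at a Benjamini-Hochberg adjusted p under 0.05 in edgeR's quasi-likelihood test. That gene was HMOX1. At an unadjusted p under 0.05 there were 1044 genes higher (6.38%) and 1132 lower (6.92%), and DESeq2 called 1 higher and 1 lower, the latter ALAS1. For 13548 genes (82.8%) the 95% interval of the difference lay within 2-fold either way. Precision followed the level: the median standard error was 0.37 log2 units for genes between 1 and 5 CPM and 0.11 for genes between 20 and 100 CPM, and the interval lay within 2-fold for 41.5% and 99.1% of these. Errors of log2 differences are standard errors throughout. A missing call is no evidence that the compounds act alike on a weakly expressed gene. Against DMSO, 301 genes were called higher and 68 lower with zinc (1.84% and 0.415%, 2.25% together), and 311 and 62 with tin (1.9% and 0.379%, 2.28% together). The comparisons with DMSO share their 3 control libraries, so their values are only placed side by side below. DMSO replicate 3 held 1514595 counts. The calls against DMSO also depended on single libraries. Without DMSO replicate 2, 71 genes were called higher and 1 lower with zinc, and 137 and 9 with tin. Without tin replicate 2 these were 525 and 225 with zinc, and 390 and 237 with tin. Of single genes, only HMOX1 and ALAS1 were followed against DMSO through other fits.

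**Figure D2:**
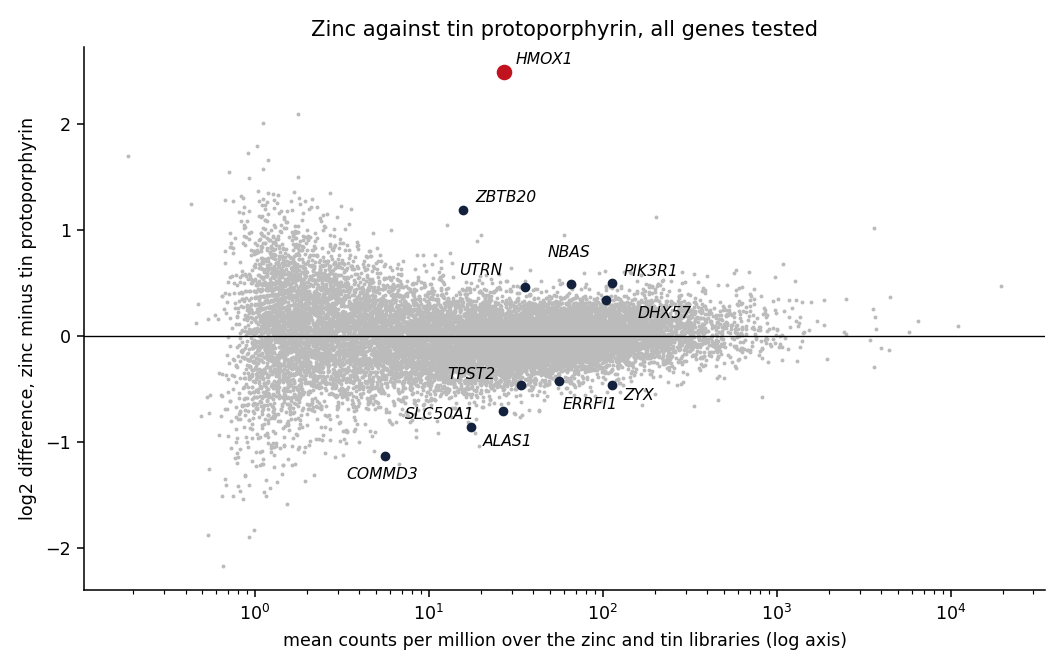
Log2 difference between zinc and tin protoporphyrin (vertical) against the mean CPM over the 6 libraries (horizontal, log axis) for 16366 genes. The red point is HMOX1, the called gene, at 2.49. Dark points are the other genes with the smallest p among those at 5 CPM or more whose libraries do not overlap.

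HMOX1, inducible heme oxygenase (ENSG00000100292.18, chr22:35380361-35394214 on the plus strand of GRCh38), stood at 67.8, 43.3 and 29.8 CPM in the 3 zinc libraries and at 7.97, 7.20 and 6.96 CPM in the 3 tin libraries. The DMSO libraries held 5.42, 4.62 and 7.66 CPM. Every zinc library was above every tin and DMSO library, while tin and DMSO libraries overlapped. The zinc values themselves spread more than 2-fold, with replicate 1, the shallowest library, at the top and replicate 3 at the bottom. The means were 46.97 ± 19.2 CPM (SD, n = 3) and 7.38 ± 0.529 CPM (SD, n = 3). HMOX1 was 5.62-fold higher with zinc, a log2 difference of 2.49 ± 0.21 (SE) with a 95% interval of 2.05 to 2.93, and edgeR's quasi-likelihood test gave a Benjamini-Hochberg adjusted p of 2.04e-05. In 24 of 24 other fits HMOX1 was called, and leaving out zinc replicate 1 gave the lowest difference, 2.30. Against DMSO the log2 difference was 2.97 with zinc (edgeR, adjusted p = 4.05e-06) and 0.47 with tin (adjusted p = 0.487), the latter with an interval of -0.14 to 1.09. In bulk RNA, a larger share of cells that express a gene and more RNA per cell cannot be told apart.

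**Figure D3:**
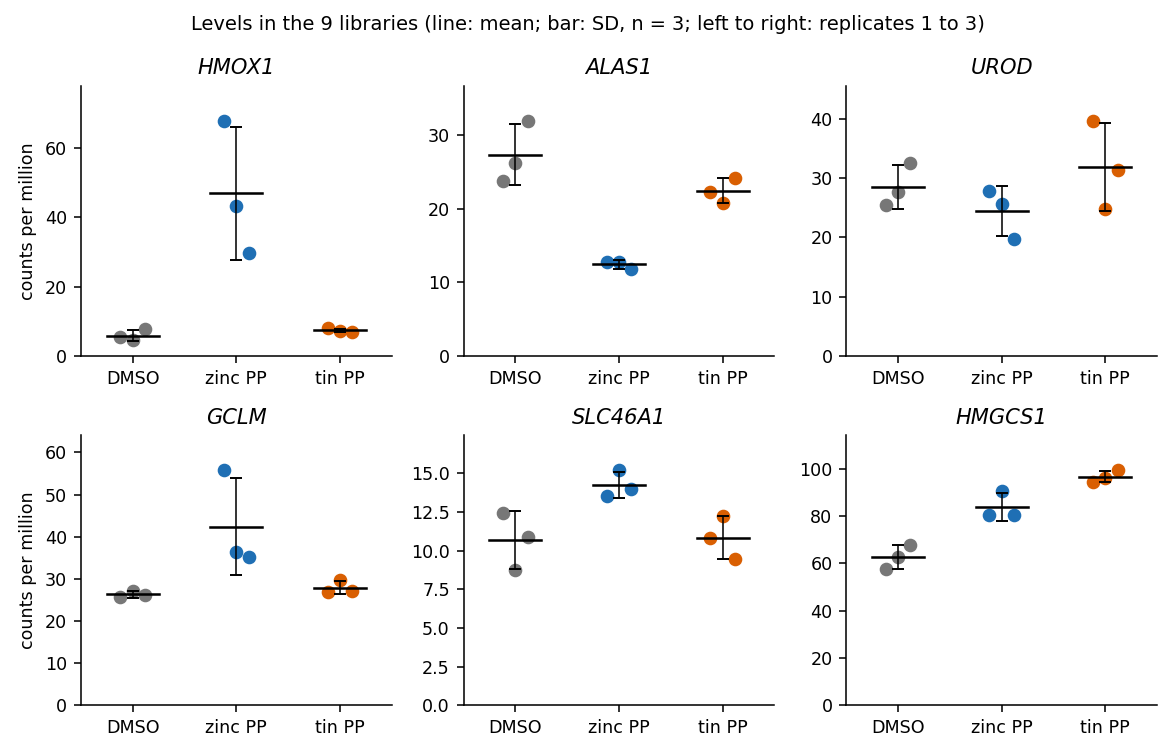
CPM of HMOX1, ALAS1, UROD, GCLM, SLC46A1 and HMGCS1 in each of the 9 libraries given DMSO, zinc protoporphyrin (zinc PP) or tin protoporphyrin (tin PP), with replicates 1 to 3 from left to right, the mean as a line and the SD as a bar (n = 3). HMOX1 ran from 29.8 to 67.8 CPM with zinc and stayed under 8 CPM elsewhere, and ALAS1 lay between 11.8 and 12.8 CPM with zinc and at 20.8 CPM or more elsewhere.

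Around HMOX1, 10 of 12 listed genes of heme breakdown and transport were tested. HMOX1 was the 1 called, 4 were higher and 6 lower with zinc, and their median log2 difference was -0.04 against -0.01 over all genes. The constitutive heme oxygenase HMOX2 held 28.6, 23.2 and 20.8 CPM with zinc and 24.4, 23.4 and 24.6 CPM with tin, and its log2 difference of -0.07 had an interval of -0.32 to 0.18. Biliverdin reductase A (BLVRA), which takes the product of heme oxygenase on to bilirubin, had an interval of -0.25 to 0.25, and the heme exporter FLVCR1 differed by -0.08 (-0.27 to 0.11). These intervals all lay within 1.5-fold. SLC46A1, the proton-coupled folate transporter that also carries heme, held 13.6, 15.2 and 13.9 CPM with zinc and 10.8, 12.3 and 9.46 CPM with tin, without overlap, at a log2 difference of 0.41 ± 0.17 (edgeR, adjusted p = 0.355). The endosomal heme transporter SLC48A1 differed by -0.36 ± 0.13 and the heme-binding membrane protein PGRMC1 by -0.29 ± 0.12, both with overlapping libraries and an edgeR adjusted p of 0.353 and 0.355. The remaining members, BLVRB at 0.12, the porphyrin transporter ABCB6 at 0.09 and the heme-binding protein HEBP1 at -0.39, were all under 7 CPM and had wider intervals. FLVCR2 and ABCG2 were too low to test.

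ALAS1, the rate-limiting synthase of heme (ENSG00000023330.15, chr3:52198086-52214327 on the plus strand of GRCh38), had the smallest p among the genes lower with zinc. Its RefSeq promoter, shown because the gene stood opposite to HMOX1, spans chr3:52197833-52198132 (GRCh38.p14, plus strand), from 250 bases before to 50 after the start. Capitals mark the binding motif of NRF1 (nuclear respiratory factor 1), GCGC and TGCGC with any base between, searched on both strands and overlapping no other motif searched.
ALAS1: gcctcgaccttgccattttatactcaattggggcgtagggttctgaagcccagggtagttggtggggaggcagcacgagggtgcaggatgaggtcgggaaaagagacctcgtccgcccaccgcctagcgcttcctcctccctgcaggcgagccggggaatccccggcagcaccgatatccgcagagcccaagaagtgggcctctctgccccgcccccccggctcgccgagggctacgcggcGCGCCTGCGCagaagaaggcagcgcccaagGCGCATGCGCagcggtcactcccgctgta
The motif occurs in 2 places, starting 9 bases before and 22 bases after the start, and 5.78% of 35116 promoter windows of this length hold it. A match describes the letters only.

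In the zinc libraries ALAS1 held 12.8, 12.8 and 11.8 CPM, and in the tin libraries 22.3, 20.8 and 24.2 CPM. The DMSO libraries held 23.8, 26.3 and 31.9 CPM. All 3 zinc libraries lay below every tin and DMSO library, while tin and DMSO libraries overlapped. The means were 12.5 ± 0.590 and 22.4 ± 1.71 CPM (SD, n = 3), and the log2 difference was -0.86 ± 0.13 (SE) with a 95% interval of -1.14 to -0.57. The unadjusted p in edgeR's quasi-likelihood test was 6.51e-06, which Benjamini-Hochberg adjustment over 16366 genes took to 0.0533, just over the threshold. ALAS1 passed in 10 of 24 other fits, DESeq2 (adjusted p = 0.00674) and the correction for length and GC content (edgeR, adjusted p = 0.00838) among them. It was lower in all 24, by 0.72 to 0.90, with adjusted p between 2.96e-07 and 0.895. The largest adjusted p came without zinc replicate 3, where the difference was -0.81. Against DMSO, ALAS1 was called lower with zinc (log2 -1.09; edgeR, adjusted p = 0.000329) and not with tin (log2 -0.23, interval -0.48 to 0.03; adjusted p = 0.4).

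Of the 9 heme synthesis genes, 8 were tested and ALAS2, the erythroid synthase, was not, with at most 2 counts in a library. Among the 8, 7 were lower with zinc, 3 of them at an unadjusted p under 0.05 (37.5%, against 6.92% of all genes lower at that p), and the median was -0.25. UROD, uroporphyrinogen decarboxylase, held 27.9, 25.6 and 19.7 CPM with zinc and 39.6, 24.8 and 31.3 CPM with tin, a log2 difference of -0.45 ± 0.16. PPOX, protoporphyrinogen oxidase, held 18.8, 17.3 and 14.7 CPM with zinc and 22.9, 17.6 and 22.96 CPM with tin, a difference of -0.37 ± 0.16. In both genes tin replicate 2 lay among the zinc libraries, as it did in the trend on length, and neither was called (edgeR, adjusted p = 0.353 and 0.366). ALAD, the second enzyme, differed by -0.22 and CPOX by -0.28, and both intervals reached past 0. UROS, at 0.05 (-0.13 to 0.23), and ferrochelatase (FECH), which puts iron into the ring, at -0.06 (-0.27 to 0.15), lay within 1.5-fold. Corrected for length and GC content, 7 of the 8 were still lower and the median was -0.18; with a projected library axis as a covariate, an alternative added after seeing the data, 5 were lower and the median was -0.13. Against DMSO, the enzymes called lower were ALAS1 and ALAD with zinc (ALAD log2 -0.52; edgeR, adjusted p = 0.0286) and none with tin (ALAD log2 -0.30; adjusted p = 0.197).

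Genes of iron storage, uptake and sensing, which handle the iron that heme breakdown sets free, gave no call. All 14 listed were tested, 8 were higher and 6 lower, 0 had an unadjusted p under 0.05, and the median was 0.02. The ferritin chains FTH1 and FTL differed by -0.10 (-0.37 to 0.17) and -0.07 (-0.36 to 0.22). The transferrin receptor TFRC differed by 0.11 (-0.05 to 0.27). ISCU, the scaffold on which iron-sulfur clusters are built, had the smallest p of the list at -0.37 (edgeR, adjusted p = 0.397), and its difference shrank to -0.02 with the projected library axis. All 14 intervals lay within 2-fold.

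Among NRF2 targets other than HMOX1, 22 of 23 were tested, 12 were higher and 10 lower with zinc, and the median was 0.03. At an unadjusted p under 0.05, 2 were higher and 0 lower (9.09% of the list, against 13.3% of all genes either way). Both are the subunits of glutamate-cysteine ligase, which makes the precursor of glutathione. The modifier subunit GCLM (ENSG00000023909.10) has a RefSeq promoter at chr1:93909381-93909680 (GRCh38.p14, minus strand), printed because this NRF2 target had the largest log2 difference of the list. Capitals mark the core of the antioxidant response element that NRF2 binds, TGACNNNGC, searched on both strands and here read on the other strand.
GCLM: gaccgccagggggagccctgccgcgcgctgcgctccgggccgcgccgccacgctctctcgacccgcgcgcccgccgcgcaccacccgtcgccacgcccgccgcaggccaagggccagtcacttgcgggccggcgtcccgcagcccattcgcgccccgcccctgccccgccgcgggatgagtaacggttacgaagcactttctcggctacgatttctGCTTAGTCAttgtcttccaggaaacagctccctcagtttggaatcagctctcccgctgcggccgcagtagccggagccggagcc
The match lies 34 bases before the start. The core was found in 6 of the 17 promoters of this list that the RefSeq table holds (35.3%), in 2 of 7 heme synthesis promoters (28.6%) and in 13.3% of all 35116 windows; in each case the letters are all that is described. No promoter is shown for HMOX1.

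GCLM held 55.7, 36.4 and 35.1 CPM in the zinc libraries and 26.96, 29.7 and 27.1 CPM in the tin libraries, where DMSO had 25.7, 27.2 and 26.2 CPM. All zinc libraries lay above all tin and DMSO libraries, and zinc replicate 1 was apart from replicates 2 and 3. The log2 difference was 0.48 ± 0.12 with an interval of 0.22 to 0.73 (edgeR, adjusted p = 0.353), and 0.35 without zinc replicate 1. GCLC, the catalytic subunit, held 48.2, 45.1 and 42.7 CPM with zinc and 39.97, 36.2 and 36.9 CPM with tin, also without overlap, a difference of 0.24 ± 0.10 (adjusted p = 0.353). Against DMSO, GCLM was called higher with zinc (log2 0.56; edgeR, adjusted p = 0.0311) but not with tin (log2 0.08; adjusted p = 0.823). Thioredoxin reductase TXNRD1 at 0.15 (-0.05 to 0.34), the quinone reductase NQO1 at -0.11 (-0.45 to 0.22) and the glutathione reductase GSR at -0.02 (-0.18 to 0.14) were not called. The cystine importer SLC7A11 held 41.4, 12.8 and 12.8 CPM with zinc and 12.4, 13.6 and 10.7 with tin, so that only zinc replicate 1 stood out. Its fitted log2 difference was 0.42 (-0.18 to 1.02), the shallow library counting for less than in a plain mean. Of 20 tested members at 5 CPM or more, 11 (55%) were highest of the 6 libraries in zinc replicate 1, against 19.8% of all genes at that level.

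None of the regulators of these genes was called. NFE2L2, which encodes NRF2, differed by -0.04 (-0.24 to 0.16), its inhibitor KEAP1 by -0.12 (-0.31 to 0.08), and the small partner MAFG by -0.08. BACH1, the repressor of HMOX1, held 61.7, 65.7 and 75.7 CPM with zinc and 50.2, 67.7 and 55.1 CPM with tin, overlapping at tin replicate 2. Its log2 difference of 0.26 ± 0.12 had an edgeR adjusted p of 0.373 and was 0.07 with the projected library axis. EIF2AK1, the heme-regulated kinase of translation, differed by -0.05 (-0.21 to 0.10). Of the 7 regulators tested, 1 was higher and 6 were lower, whereas 3 were lower with the projected library axis and 3 after the length and GC correction.

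Genes that answer to free zinc gave no call, and most of them were too low to measure well. Of 11 metal response genes 8 were tested, 3 higher and 5 lower, 0 at an unadjusted p under 0.05, with a median of -0.07 whose sign differed in 8 of 24 other fits. Only 2 of the 8 intervals lay within 2-fold. Metallothionein MT2A held 6.02, 2.35 and 2.53 CPM with zinc and 6.09, 2.59 and 4.04 CPM with tin, from 8 to 52 counts a library, and its difference of -0.61 had an interval of -1.48 to 0.27. The metallothioneins are near copies of one another and share reads, so values of single members are uncertain, and MT1A, MT1M and MT3 were too low to test. The better measured zinc exporter SLC30A1 held 88.8, 68.4 and 66.6 CPM with zinc and 59.2, 73.9 and 59.4 CPM with tin, a difference of 0.16 (-0.10 to 0.42), and the zinc sensor MTF1 differed by 0.18 (-0.08 to 0.43). Among zinc importers 11 of 14 were tested, 4 higher and 7 lower, with a median of -0.12. SLC39A13, a zinc transporter of the Golgi, held 30.9, 23.4 and 19.6 CPM with zinc and 45.1, 27.4 and 41.8 CPM with tin. Tin replicate 2 lay within the zinc range, and the log2 difference of -0.74 ± 0.18 was not called (edgeR, adjusted p = 0.353). SLC39A4 was at -0.37 and SLC39A14 at -0.11 (-0.27 to 0.06).

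Cholesterol synthesis and uptake genes, the targets of SREBP2, leaned one way. All 20 tested (of 21) were lower with zinc than with tin, against 8387 of all 16366 genes, and the median was -0.17. At an unadjusted p under 0.05, 8 were lower and 0 higher, and in 7 all tin libraries lay above all zinc libraries, which 6.38% of all genes did; 0 were called. HMGCS1, which makes the HMG-CoA that enters the pathway, held 80.6, 90.8 and 80.6 CPM with zinc, 94.5, 96.3 and 99.3 CPM with tin and 57.5, 62.6 and 67.6 CPM with DMSO. Its zinc libraries thus lay above DMSO and below tin, and the log2 difference from tin was -0.19 ± 0.08 (edgeR, adjusted p = 0.362). Mevalonate kinase (MVK), the member with the smallest p, held 25.6, 26.9 and 27.6 CPM with zinc and 33.99, 30.1 and 34.2 CPM with tin, a difference of -0.28 ± 0.11 (adjusted p = 0.353). Lanosterol synthase (LSS) differed by -0.22 ± 0.09 and the LDL receptor by -0.01 (-0.26 to 0.23). All 20 intervals lay within 2-fold. Against DMSO, 3 of the 20 were called higher with zinc and 9 with tin, where 1.84% and 1.9% of all genes were. The median stayed below 0 in all 24 other fits (-0.22 to -0.11); with the length and GC correction 17 of 20 were lower, and with the projected library axis 18 were, 2 of them at an unadjusted p under 0.05.

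**Figure D4:**
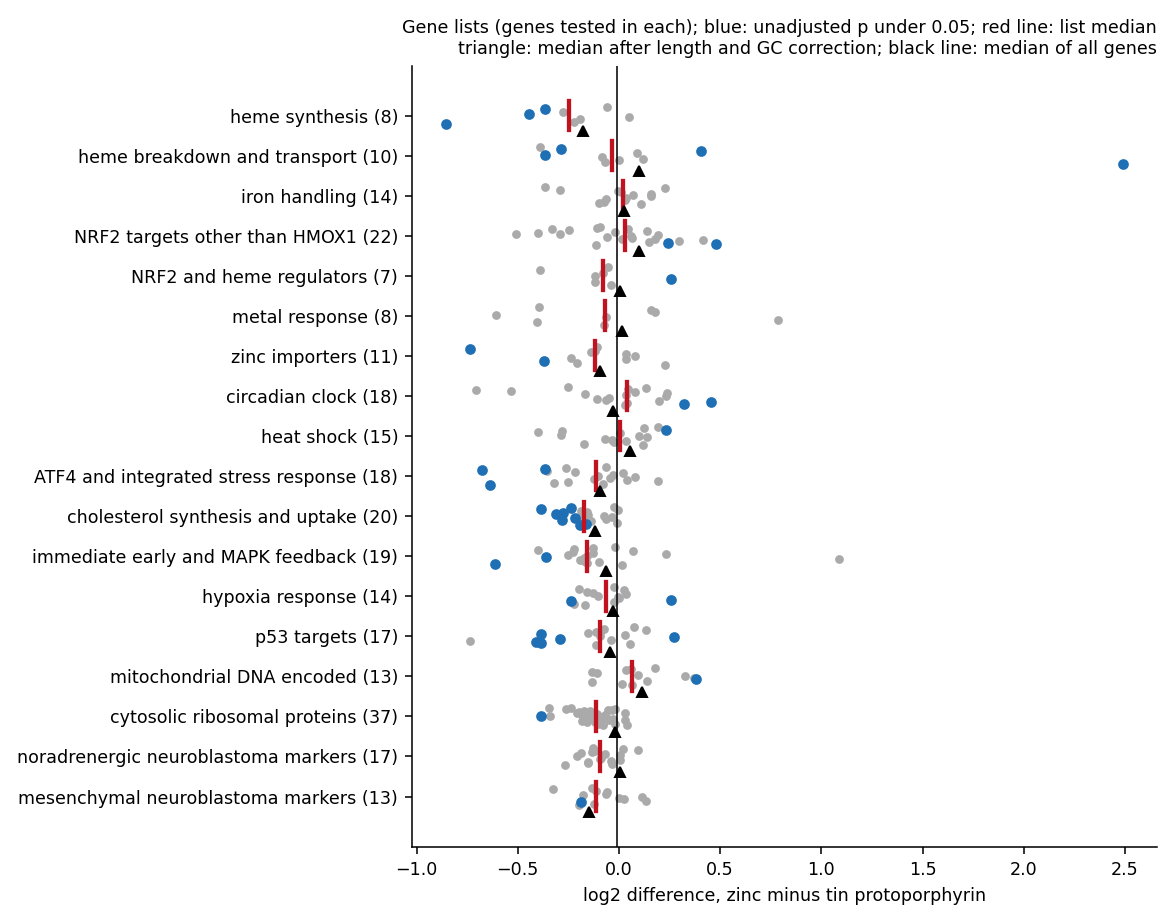
Log2 difference between zinc and tin protoporphyrin (horizontal) for each tested gene of 18 lists (points, blue where the unadjusted p is under 0.05), with the list median as a red line and the median after the length and GC correction as a black triangle. All 20 cholesterol genes lie left of 0, HMOX1 lies at 2.49, and the median of all genes is -0.01.

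In the list of ATF4 and the integrated stress response, 4 of 18 tested genes were higher and 14 lower with zinc, 0 called, with a median of -0.11. With the projected library axis 9 of the 18 were lower and the median was 0.00, after the length and GC correction 11 were lower (median -0.09), and the median was -0.29 without zinc replicate 1 and -0.19 without tin replicate 2. GDF15, a stress-induced cytokine, held 13.6, 8.77 and 10.7 CPM with zinc and 20.3, 12.3 and 16.6 CPM with tin, a log2 difference of -0.68 ± 0.21 (edgeR, adjusted p = 0.353). Against DMSO, GDF15 was called higher with tin (log2 1.42; edgeR, adjusted p = 0.00176) and not with zinc (log2 0.75; adjusted p = 0.134). ATF4 itself held 87.3, 56.5 and 51.5 CPM with zinc and 116, 62.1 and 103 CPM with tin, a difference of -0.64 ± 0.23 with overlapping libraries. Zinc replicate 1 stood apart from the other zinc libraries in several members. STC2, a secreted glycoprotein, held 39.9, 16.2 and 16.4 CPM with zinc against 21.2, 18.7 and 21.99 with tin. SESN2, a stress-induced inhibitor of mTORC1, held 40.7, 23.6 and 21.2 CPM with zinc against 23.8, 23.9 and 23.8 with tin. In 13 of 17 members at 5 CPM or more (76.5%) zinc replicate 1 was the highest of the 6 libraries, against 19.8% of all genes at that level. Over the 17, its median difference from the mean of zinc replicates 2 and 3 was 0.69 log2 units, and over all genes 0.00. Zinc replicate 1 was also the highest library for HMOX1 and GCLM, and the part of this library in their differences was not tested beyond leaving it out.

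Of 24 immediate early and MAPK feedback genes 19 were tested, 4 higher and 15 lower, with 2 lower at an unadjusted p under 0.05 (10.5%, against 6.92% of all genes) and a median of -0.16. The median was -0.06 after the length and GC correction, -0.04 with the projected library axis and -0.25 without zinc replicate 2. IER2 held 21.1, 25.2 and 19.5 CPM with zinc and 28.6, 26.9 and 30.1 CPM with tin, without overlap, a difference of -0.36 ± 0.13 (edgeR, adjusted p = 0.353). The AP-1 subunit FOSL1 differed by -0.61 ± 0.24, and the ERK phosphatase DUSP6 by -0.22 (-0.44 to 0.00). Against DMSO, 3 of the 19 were called higher with zinc and 8 with tin, where 1.84% and 1.9% of all genes were. The median log2 difference of the 19 from DMSO was 0.45 with zinc and 0.41 with tin. Of 17 p53 targets, 5 were higher and 12 lower, with a median of -0.09, which was -0.05 after the length and GC correction, 0.00 with the projected library axis (9 of 17 lower) and -0.15 without tin replicate 2. At an unadjusted p under 0.05, 4 were lower and 1 higher, where 6.92% and 6.38% of all genes were. The apoptosis gene BBC3 at -0.39 ± 0.15 (-0.13 after the length and GC correction), BAX at -0.41 ± 0.17 and GADD45A at -0.38 ± 0.15 were among the 4, each with an edgeR adjusted p of 0.353, and the higher gene was ZMAT3, an RNA-binding p53 target, at 0.27 ± 0.11.

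Hypoxia, clock and heat shock genes gave no call. Of 14 hypoxia genes 3 were higher and 11 lower. BNIP3, a mitophagy receptor, at -0.24 ± 0.09 and PDK1, which restrains pyruvate dehydrogenase, at 0.26 ± 0.11 had an unadjusted p under 0.05. These 2 were 14.3% of the list, against 13.3% of all genes. With the projected library axis 6 of the 14 were lower. Of 18 clock genes 11 were higher, and the heme-binding receptor NR1D2 held 91.9, 110 and 109 CPM with zinc and 74.5, 95.8 and 82.4 CPM with tin, a difference of 0.32 ± 0.11 with overlap at tin replicate 2 (edgeR, adjusted p = 0.353). Its relative NR1D1 differed by 0.03 (-0.43 to 0.49), and PER2 by 0.46 ± 0.21 without overlap. All zinc libraries lay above all tin libraries in 1 clock gene, and the reverse held in 3, where 6.56% and 6.38% of all genes did so. The weakly expressed BHLHE40 (-0.71 ± 0.49) and CIART (-0.53 ± 0.34) were among the 3. The clock median was 0.04. After the length and GC correction 9 of the 18 were lower (median -0.03), and without tin replicate 2 also 9 (median -0.04). Of 15 heat shock genes 8 were higher, the median was 0.01, and HSPA4, a nucleotide exchange factor of HSP70, stood at 0.23 ± 0.09 (edgeR, adjusted p = 0.353). HSPA1A at 0.12 and HSPA1B at -0.17 are near-identical copies whose reads may be split between them. All 15 heat shock intervals lay within 2-fold.

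Genes for ribosomal proteins were mostly lower with zinc and those on mitochondrial DNA mostly higher, with no call, and in both lists 1 tin library was the highest for most members. Of 37 cytosolic ribosomal protein genes, whose median transcript is 1602 nt, 34 were lower with zinc, 1 at an unadjusted p under 0.05 (RPL30, -0.39 ± 0.16), and the median was -0.11. In 35 of these 37 tin replicate 1 was the highest of the 6 libraries. With the length and GC correction 21 of the 37 were lower and the median was -0.02, and with the projected library axis 9 were lower and it was 0.05. Of 13 genes encoded by mitochondrial DNA, whose median transcript is 784 nt, 10 were higher with zinc, with a median of 0.07. In 9 of these 13 tin replicate 2 was the highest of the 6 libraries. MT-ND4L, a subunit of complex I, held 776, 829 and 808 CPM with zinc and 509, 793 and 555 CPM with tin, a difference of 0.38 ± 0.15 (edgeR, adjusted p = 0.353), with tin replicate 2 level with the zinc libraries. The median kept its sign in 22 of 24 other fits. After the length and GC correction 4 of the 13 were lower (median 0.11), and without tin replicate 2 there were 3 (median 0.24). With the projected library axis the direction turned, with 9 lower (median -0.06).

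The cell type markers showed no call either. Of 17 noradrenergic markers tested 4 were higher and 13 lower, and 0 had an unadjusted p under 0.05. After the length and GC correction 8 of the 17 were lower (median 0.00). With the projected library axis 12 were lower (median -0.01), and 13 were without tin replicate 2 (median -0.11). Of 13 mesenchymal markers 3 were higher and 10 lower, and the median of -0.12 stayed below 0 in all 24 other fits. After the length and GC correction 11 of the 13 were lower (median -0.15), and with the projected library axis 12 were (median -0.125). Without tin replicate 2, which was the highest of the 6 libraries in 6 of the 13, 8 were lower (median -0.08). The marker FN1 was called lower with the length and GC correction and with the projected axis (edgeR, adjusted p = 0.04 and 0.00198). Its libraries overlapped, and it was called neither in the main fit (edgeR, adjusted p = 0.376) nor without tin replicate 2. The hyaluronan receptor CD44 held 52.7, 53.4 and 51.7 CPM with zinc and 59.1, 59.7 and 60.7 CPM with tin, without overlap, and its small difference of -0.19 ± 0.08 had an edgeR adjusted p of 0.366. Against DMSO, CD44 was called higher with both, by 0.53 with zinc (edgeR, adjusted p = 0.00509) and by 0.72 with tin (adjusted p = 0.000118). Of 14 markers of other lineages, EPCAM and SOX10 alone passed the filter, at about 1 to 2 CPM, and their intervals were wider than 2-fold.

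Beyond the lists, the genes at 5 CPM or more with the smallest p and no overlap of libraries were HMOX1, NBAS, PIK3R1, ZBTB20, DHX57 and UTRN on the zinc side and ALAS1, SLC50A1, ERRFI1, COMMD3, TPST2 and ZYX on the tin side. Libraries without overlap occurred for 1073 genes with zinc above (6.56%) and 1044 with tin above (6.38%). NBAS, part of a tether of vesicles at the endoplasmic reticulum, held 77.5, 70.9 and 82.8 CPM with zinc and 54.4, 59.7 and 50.2 CPM with tin, a difference of 0.49 ± 0.09 (edgeR, adjusted p = 0.183). PIK3R1, the regulatory subunit of phosphoinositide 3-kinase, held 136, 127 and 138 CPM with zinc and 87.6, 108 and 87.1 CPM with tin, a difference of 0.50 ± 0.09 (adjusted p = 0.253). In ZBTB20, a zinc finger repressor of transcription, the values were 19.6, 20.4 and 25.5 CPM with zinc and 6.68, 13.9 and 8.77 CPM with tin, a difference of 1.19 ± 0.25. In each of these genes tin replicate 2 was the tin library nearest to zinc. The helicase DHX57 differed by 0.34 ± 0.08 and utrophin (UTRN) by 0.46 ± 0.11. HMOX1 apart, the longest transcripts of these zinc-side genes ran from 5519 nt (DHX57) to 27125 nt (ZBTB20), against a median of 3327 nt over all genes. After the length and GC correction NBAS was at 0.36 and UTRN at 0.24. With the projected library axis PIK3R1 was at 0.36, ZBTB20 at 0.69 and DHX57 at 0.26.

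On the tin side, ERRFI1, a feedback inhibitor of the EGF receptor, held 47.4, 50.5 and 45.4 CPM with zinc, 65.9, 59.2 and 68.5 CPM with tin and 28.4, 30.6 and 34.5 CPM with DMSO. Zinc thus lay between DMSO and tin, without overlap, at a difference from tin of -0.43 ± 0.09 (edgeR, adjusted p = 0.353). ZYX, the focal adhesion protein zyxin, held 97.9, 102 and 85.5 CPM with zinc, 148, 113 and 130 CPM with tin and 46.8, 50.03 and 55.5 CPM with DMSO, in the same order, with a difference of -0.46 ± 0.10 (adjusted p = 0.353). Against DMSO both were called higher with zinc (ERRFI1 0.65, ZYX 0.93) and with tin (ERRFI1 1.08, ZYX 1.39). The tyrosylprotein sulfotransferase TPST2 held 28.6, 29.3 and 27.8 CPM with zinc and 42.8, 36.1 and 39.5 CPM with tin, a difference of -0.47 ± 0.10, and the sugar transporter SLC50A1 stood at -0.71 ± 0.15. COMMD3 held 5.27, 3.40 and 2.89 CPM with zinc and 9.26, 5.96 and 6.82 CPM with tin, a difference of -1.13 ± 0.24. In these tin-side genes, too, tin replicate 2 was the tin library nearest to zinc. With the projected library axis ERRFI1 was at -0.33, TPST2 at -0.37, SLC50A1 at -0.49 and COMMD3 at -0.82. Strand and the treatment of overlapping genes in counting are not given in the sources used here, so values of genes that overlap others or have antisense partners are uncertain.

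A further set was drawn from libraries outside the comparison, by a rule added after values had been seen. It held the 125 genes called at least 2-fold higher with HPPE than with DMSO (0.764% of the 16366 tested), 124 of them without HMOX1. Of these 124, 28 were higher and 96 lower with zinc than with tin, and the median was -0.22. At an unadjusted p under 0.05, 28 were lower and 3 higher, where 6.92% and 6.38% of all genes were. Libraries did not overlap in 22 with tin above and 4 with zinc above, where 6.38% and 6.56% of all genes did not. Against DMSO the median of the 124 was 0.79 with zinc and 1.03 with tin. Of the 124, 47 were called higher with zinc and 67 with tin, where 1.84% and 1.9% of all genes were, and 0 were called lower with either. The rule used the same DMSO libraries, so these values are not independent of it. Libraries that entered the rule also differed in the trend on transcript length. Its Spearman correlation was -0.099, -0.472 and -0.453 in HPPE replicates 1 to 3, and 0.437, 0.192 and -0.462 in the DMSO replicates. It was 0.222, 0.385 and 0.567 with zinc and -0.539, 0.524 and -0.182 with tin. The part of this trend in the choice of the set was not tested. PTX3, a secreted pattern recognition protein, held 15.8, 13.9 and 12.4 CPM with zinc and 27.9, 19.2 and 22.7 CPM with tin, a difference of -0.79 ± 0.17 (edgeR, adjusted p = 0.353). CCN1, a matricellular protein, held 39.1, 36.2 and 32.5 CPM with zinc and 59.2, 39.9 and 52.3 CPM with tin, a difference of -0.52 ± 0.14 (adjusted p = 0.353). The cytokine LIF stood at -1.09 ± 0.33, thrombospondin 1 (THBS1) at -0.31 ± 0.10, the Wnt inhibitor DKK1 at -0.43 ± 0.14 and the neuropeptide precursor VGF at -0.58 ± 0.16, the last with overlapping libraries. Of the 28 genes higher with zinc, GCLM was among the 3 with an unadjusted p under 0.05. GREM1, the BMP antagonist gremlin 1, differed by -0.11 (-0.26 to 0.05). These named genes, GCLM apart, were chosen after their values were seen. The median lay below 0 in all 24 other fits (-0.26 to -0.12), with 90 of 124 lower after the length and GC correction and 82 with the projected library axis. HPPE replicates 2 and 3, which entered the rule, differed by a chi-square of 1.11 per degree of freedom over 14244 genes, the smallest of the 12 pairs within groups. They were counted as 2 libraries, and HMOX1 was the only gene called between zinc and tin without either. The set itself was not drawn again without either, so that count does not bear on the set.

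**Figure D5:**
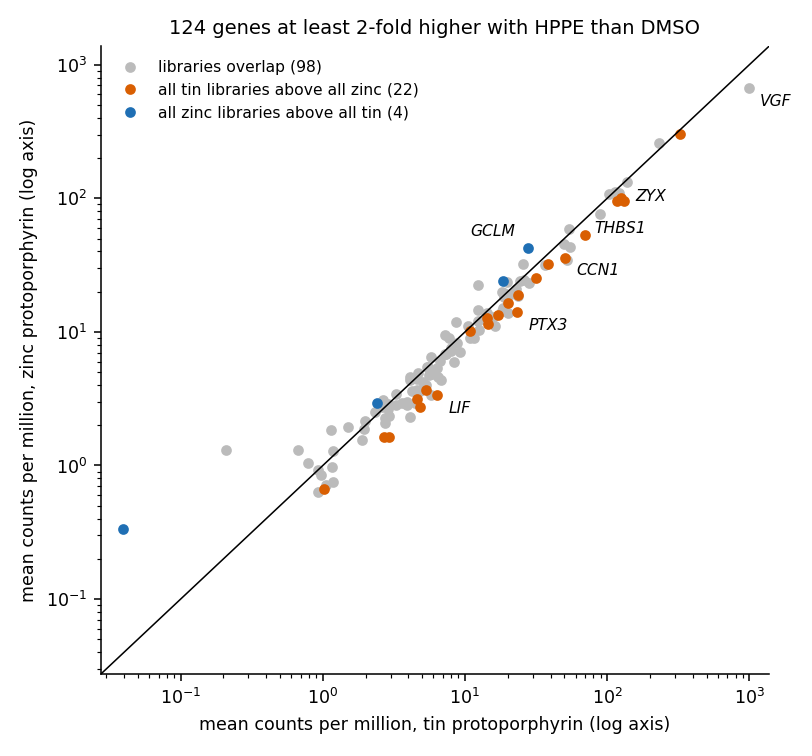
Mean CPM with zinc (vertical) against tin protoporphyrin (horizontal), both on log axes, for the 124 genes at least 2-fold higher with HPPE than with DMSO, HMOX1 left out. The line marks equal levels. Orange points are the 22 genes with all tin libraries above all zinc libraries, and blue points the 4 with the reverse.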

How the data were processed

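The authors deposited whole-number read counts per gene for 12 libraries of total RNA prepared for mRNA sequencing. Per the submitters' processing notes, fastp 0.21.1, STAR 2.7.7a, featureCounts and GRCh38 were used; the annotation and the use of strand are not given in the sources used here. The members and gene lists were chosen with earlier results of these data known. Of 60710 identifiers, 60437 matched a symbol, and coordinates and transcript lengths come from GENCODE 29, whose longest transcript gave a length to 98.9% of the genes tested.

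Counts were filtered with filterByExpr, which left 16366 genes with 99.6% of all counts, scaled by TMM and fitted with edgeR 4.0.16 (R 4.3.3) with 1 mean per group over all 12 libraries, glmQLFit with robust estimation and glmQLFTest, two-sided. Calls are at a Benjamini-Hochberg adjusted p under 0.05 over all genes tested, standard errors come from the F statistic, and 95% intervals use its degrees of freedom (median 17). A gene list is given by its counts and median, with no test. Reads without molecular identifiers are not independent molecules, so the floor of 3 counts takes in counting error and nothing else. The steps were tested on simulated data that held no trend on length or GC content and no library axis. That test therefore could not show how well the corrections for these work.

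The genes named are HMOX1, ALAS1 and the tested heme genes, NFE2L2, BACH1, KEAP1, MTF1, NR1D1 and NR1D2, the gene with the smallest p in each other list, the genes called, and the 6 each way with the smallest p at 5 CPM or more without overlap between groups. Some genes of the lists are counted but not reported here by name. Other names are examples from the lists, or are marked as chosen after their values were seen. Alternatives were no filter, 1 CPM in 3 libraries, RLE factors, unscaled sizes, DESeq2 1.42.0, the 2 groups alone, non-robust estimation, a replicate block, a library axis (first component of within-group deviations), a length and GC correction by lowess offsets, the block with that correction, each library left out, and, added after seeing the data, the axis scored by projecting all libraries. RefSeq promoters (GRCh38.p14) were searched for motifs.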

Additional observations from a re-analysis of the deposited data

How the results depend on the processing

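HMOX1 was called higher with zinc in all 24 alternatives, between 2.30 and 2.77 on the log2 scale. The number of other calls depended on the filter, on the treatment of the trend on length and on tin replicate 2. Against 1 higher and 0 lower, there were 70 and 200 with no filter, whose cause was not tested, 1221 and 1129 with the library axis, which is independent of the groups by construction and left a correlation of 0.493 with length, 38 and 41 with the projected library axis, and 4 and 16 after correction for length and GC content. The filter of 1 CPM and DESeq2 each gave 1 lower gene, and the replicate block with the length and GC correction gave 4 lower. Leaving out a library gave 1 to 777 higher and 0 to 676 lower genes. The high end came without tin replicate 2, when the medians of transcript length were 7530 nt for the higher and 2330 nt for the lower genes; every other library left out gave 1 higher and at most 1 lower. RLE factors, unscaled sizes, the 2 groups alone and non-robust estimation each gave 1 higher and 0 lower. The replicate block also gave 1 and 0, with 1597 genes at an unadjusted p under 0.05 against 2176; same-numbered zinc and tin libraries deviated together with correlations of 0.286, -0.183 and -0.121, so the numbers were not taken as pairs. HMOX1, the 1 gene called, kept its direction throughout; genes called under an alternative alone were not followed through all the others. Depth limits the genes under 5 CPM most, and zinc replicate 1 in particular.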

Other observations

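With the length and GC correction 20 genes were called between zinc and tin, and all 20 were among the 79 called with the projected library axis, with 4 higher and 16 lower with zinc in each. Of the 20, 7 were also called without tin replicate 2: HMOX1, PIK3R1, ZBTB20 and USP10 higher with zinc, and ALAS1, SLC50A1 and ERRFI1 lower. The other 13 were all lower with zinc, and their longest transcripts ran from 6616 to 23529 nt. Long transcripts ran higher in all 3 zinc libraries and in tin replicate 2. Among the 13, the matrix protein fibrillin 1 (FBN1) differed by -0.19 before the correction and by -0.38 after it, and the matrix protein tenascin C (TNC) by -0.27 and -0.36 (edgeR, Benjamini-Hochberg adjusted p = 0.00645 for each). These examples were chosen after their values were seen. Whether the differences of the 13 come from the compounds or from the model of length was not tested.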
